A study of Mus musculus with 8 samples.

Results

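Globins are the protein chains of haemoglobin, and 6 of their genes were followed here in mouse outflow tracts: the embryonic genes Hba-x, Hbb-bh1 and Hbb-y and the adult-type genes Hba-a1, Hbb-b1 and Hbb-b2. They were found on the arrays by the gene name of each probe, or by the gene of the 1 accession the array design uses as its systematic name, which gave 7 probes of 55681, with 2 probes for Hbb-y and 1 for each other gene. All 6 were among the 24291 genes that were bright enough to be tested. The arrays measured RNA from outflow tracts, the vessel stem through which the embryonic heart ejects blood, dissected at E10.5 and pooled by 4. The mutant embryos were Raldh2-/-, in 4 pools numbered 1, 2, 3 and 7, and their WT littermates formed 4 pools numbered 1, 2, 5 and 7. Values by pool are printed below in these orders, knockout first. Raldh2, now Aldh1a2, makes retinoic acid, and the loss was not restricted to a tissue in the labels. Both groups carry the same early rescue, since all-trans-retinoic acid at 0.1 mg per g was mixed into the dams' food between E7.5 and E8.5. The labels give neither the strain nor whether the tracts were cleared of blood, and each array holds RNA of several embryos.

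Haemoglobin joins 2 kinds of chain, an alpha-like and a beta-like one, and each kind is encoded by a gene cluster in which embryonic genes precede the adult ones. In the mouse the first red cells arise in the yolk sac as a cohort that enters the blood still nucleated and matures in circulation. As this primitive cohort matures, its alpha-like output moves from Hba-x to the adult alpha genes and its beta-like output from Hbb-bh1 to Hbb-y, and the adult beta genes become the main ones in the definitive red cells of the fetal liver. Globin RNA in dissected tissue comes mainly from the red cells it holds, and in RNA of whole pools fewer red cells and less globin RNA per red cell cannot be told apart.

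Wild type pool 1 had an array unlike the other 7, and each comparison of the members is given with and without it. Its 75th percentile of signal, by which the values below are scaled, was 4211, against 659 to 1134 on the other arrays. Among 15170 probes that were not well above background on any other array, its median signal was 1067, against 4.24 to 8.84. The targeted gene Aldh1a2 differed by -1.45 between knockout and wild type on the log2 scale in 8 pools and by -1.79 in 7 (limma adjusted p = 0.735 and 0.364). Whether the Aldh1a2 probe lies outside the deleted part was not tested. Its scaled log2 levels were 2.02, 2.01, 1.87 and 0.06 in the knockout and 1.92, 3.21, 2.98 and 3.65 in the wild type pools. Knockout pool 7 thus lay far below the other knockout pools, which were near wild type pool 1. All 10 markers of outflow tract tissue that were looked up (among them Myl7, Tnnt2, Isl1 and Sox9) were well above background in all 8 pools. All arrays were on 1 slide, with knockout and wild type arrays in separate rows, which leaves row and genotype confounded: the effects of the 2 cannot be told apart.

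Each member was read by 60-base probes, and what these can tell apart sets what the values mean. The embryonic Hba-x probe lay at chr11:32177668-32177727 (mm9) on the plus strand and the Hba-a1 probe at chr11:32183955-32184014. On the minus strand of chromosome 7 the Hbb-bh1 probe lay at chr7:110990209-110990268 and the Hbb-y probes at chr7:111000268-111000327 and chr7:111000448-111000507. The Hbb-b1 probe lay at chr7:110961105-110961164 and the Hbb-b2 probe at chr7:110962047-110962106. These last 2 starts are only 942 bases apart, within the 1400 bases that the RefSeq table gives for 1 adult beta gene. The accession of the Hbb-b1 probe belongs to Hbb-bt in that table (GRCm38.p6), so both adult beta probes were placed on 1 locus of the mm9 genome. The 2 adult beta genes, which are near copies, are uncertain as separate measurements. The design's longer list of accessions for the Hba-a1 probe names Hba-a2 as well, so its value stands for both adult alpha genes. The sequences are printed for the probes that read coding sequence, since they show what was hybridised for each alpha-like gene, for Hbb-y and for Hbb-b2; no letters are in capitals because no part is singled out.
Hba-x probe: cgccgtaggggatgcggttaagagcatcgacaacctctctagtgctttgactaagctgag
Hba-a1 probe: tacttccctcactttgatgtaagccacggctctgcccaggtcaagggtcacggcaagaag
Hbb-y probe, the brighter: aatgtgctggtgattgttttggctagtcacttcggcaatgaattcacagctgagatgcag
Hbb-b2 probe: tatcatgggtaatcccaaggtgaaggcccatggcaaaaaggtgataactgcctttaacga

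The members share promoter elements, and the sequences just upstream of 4 of the genes are shown for that reason. They come from RefSeq (GRCm38.p6), which had an entry for Hba-x, Hba-a1, Hbb-y and Hbb-bt, the gene of the Hbb-b1 accession. Each line gives the 130 bases before the annotated start, 5′ to 3′ in the gene's direction, and capitals mark matches on either strand to CACCC (bound by factors of the Klf1 type), to GATAA (the core of Gata1 sites) and to the CCAAT box. They also mark AGGTCA, the core element of nuclear receptor sites, and the TATAAA box. The windows are chr11:32276470-32276599 (plus strand), chr11:32283542-32283671 (plus), chr7:103853208-103853337 (minus) and chr7:103813924-103814053 (minus).
Hba-x promoter: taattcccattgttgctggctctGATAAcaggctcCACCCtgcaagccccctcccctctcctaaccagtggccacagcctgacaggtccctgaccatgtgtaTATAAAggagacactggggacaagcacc
Hba-a1 promoter: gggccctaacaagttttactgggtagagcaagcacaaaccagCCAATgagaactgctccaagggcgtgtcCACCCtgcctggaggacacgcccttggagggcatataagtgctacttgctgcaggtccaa
Hbb-y promoter: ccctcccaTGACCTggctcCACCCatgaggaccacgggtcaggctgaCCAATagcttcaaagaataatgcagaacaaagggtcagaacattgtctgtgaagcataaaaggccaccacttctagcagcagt
Hbb-bt promoter: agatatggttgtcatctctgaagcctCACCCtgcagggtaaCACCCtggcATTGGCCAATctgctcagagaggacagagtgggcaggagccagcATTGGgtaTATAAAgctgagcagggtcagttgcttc

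All 4 windows hold CACCC, which begins 95 bases before the start in Hba-x, 60 in Hba-a1, 111 in Hbb-y, and 104 and 89 in Hbb-bt. Over the 250 bases upstream, CACCC or its reverse complement GGGTG was found in 52.0% of 32851 promoters in the table. GATAA or TTATC, which 22.6% of promoters hold, was found in all 4 within that longer window. CCAAT or ATTGG (33.8% of promoters) was in Hba-a1, Hbb-y and Hbb-bt, and TATAAA or TTTATA (12.4%) in Hba-x and Hbb-bt. In Hbb-bt, an ATTGG and a CCAAT lie end to end without sharing bases. AGGTCA or its reverse complement TGACCT (14.0%) was found in Hbb-y, beginning 122 bases before the start on the opposite strand. These are matches of letters and not measured binding.

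All 7 probes were far above background in all 8 pools and below the scanner's ceiling. No pixel of theirs was saturated, and the brightest, the Hbb-y probe, reached 69.2% of the saturation value. The processed signal of Hbb-bh1, in units of 1000, was 466, 490, 333 and 438 for the knockout and 328, 430, 247 and 250 for the wild type. Hbb-b2, on the dimmest of the probes, gave 16.6, 13.3, 8.39 and 7.17 on that scale for the knockout and 6.86, 13.8, 3.32 and 2.45 for the wild type. Before any scaling, therefore, wild type pool 2 lay among the knockout pools for both genes and wild type pools 5 and 7 lay below all of them. Hba-x had an unscaled signal of 286, 349, 205 and 275 in the knockout and 136, 330, 101 and 114 in the wild type pools. Hba-a1 had 400, 463, 319 and 351 against 166, 414, 155 and 149. For these alpha-like genes wild type pool 2 was again the only wild type pool at knockout level, and pool 1 stood with pools 5 and 7. Hbb-b1 had 105, 106, 139 and 63.2 against 23.2, 100.2, 39.8 and 27.6, and the brighter Hbb-y probe 513, 539, 504 and 505 against 395, 476, 348 and 367. Of the 6 genes, only Hbb-y had unscaled groups that did not overlap, with all 4 wild type signals below all 4 knockout ones, and this was so for 4.09% of all genes in either direction. Its second probe gave 468, 448, 423 and 417 against 372, 372, 303 and 218.

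Among the embryonic genes, Hba-x, the zeta chain gene that opens the alpha cluster, separated the pools most. Levels here are log2 of the signal over the 75th percentile of its array, and those of Hba-x were 8.10, 8.51, 7.5 and 8.29 for the knockout against 5.02, 8.52, 6.76 and 7.43 for the wild type. Wild type pool 2 had the highest level of all, and the other 3 wild type pools lay below every knockout pool, pool 7 by a small margin. For Hbb-bh1, the first beta-like gene to be used, the levels were 8.81, 9.0, 8.20 and 8.96 in the knockout pools and 6.28, 8.90, 8.05 and 8.57 in the wild type pools. Here both wild type pools 2 and 7 lay inside the knockout range.

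Hbb-y, the epsilon-like gene that follows Hbb-bh1, had the smallest range outside wild type pool 1, at 0.62 and 0.54 on its 2 probes. Its brighter probe was also the brightest of all, and the dimmest, that of Hbb-b2, had the widest range. Whether signal strength shaped these ranges was not tested. On its brighter probe the knockout levels were 8.95, 9.13, 8.79 and 9.16 and the wild type levels 6.55, 9.05, 8.55 and 9.12. Wild type pools 2 and 7 again fell within the knockout range. On the second probe the levels were 8.81, 8.87, 8.54 and 8.89 against 6.46, 8.69, 8.35 and 8.37, and there wild type pool 7 lay below all knockout pools, so the 2 probes differ on that pool.

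The adult-type genes again had wild type pool 2 at knockout level. Hba-a1, an adult alpha gene that is already active in primitive red cells, had levels of 8.59, 8.92, 8.13 and 8.64 in the knockout pools and 5.30, 8.84, 7.38 and 7.82 in the wild type pools. The probe named for Hbb-b1, the gene of the major adult beta chain, had 6.66, 6.78, 6.93 and 6.16 against 2.46, 6.80, 5.42 and 5.39. It was the exception to the order of the knockout pools, since pool 3, lowest among them for the other 6 probes, was the highest for Hbb-b1. The probe named for Hbb-b2, the gene of the minor adult beta chain, had 4.00, 3.79, 2.89 and 3.03 against 0.70, 3.94, 1.83 and 1.89. In all 3 genes wild type pool 2 lay inside the knockout range and the other 3 wild type pools below it.

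**Figure D1:**
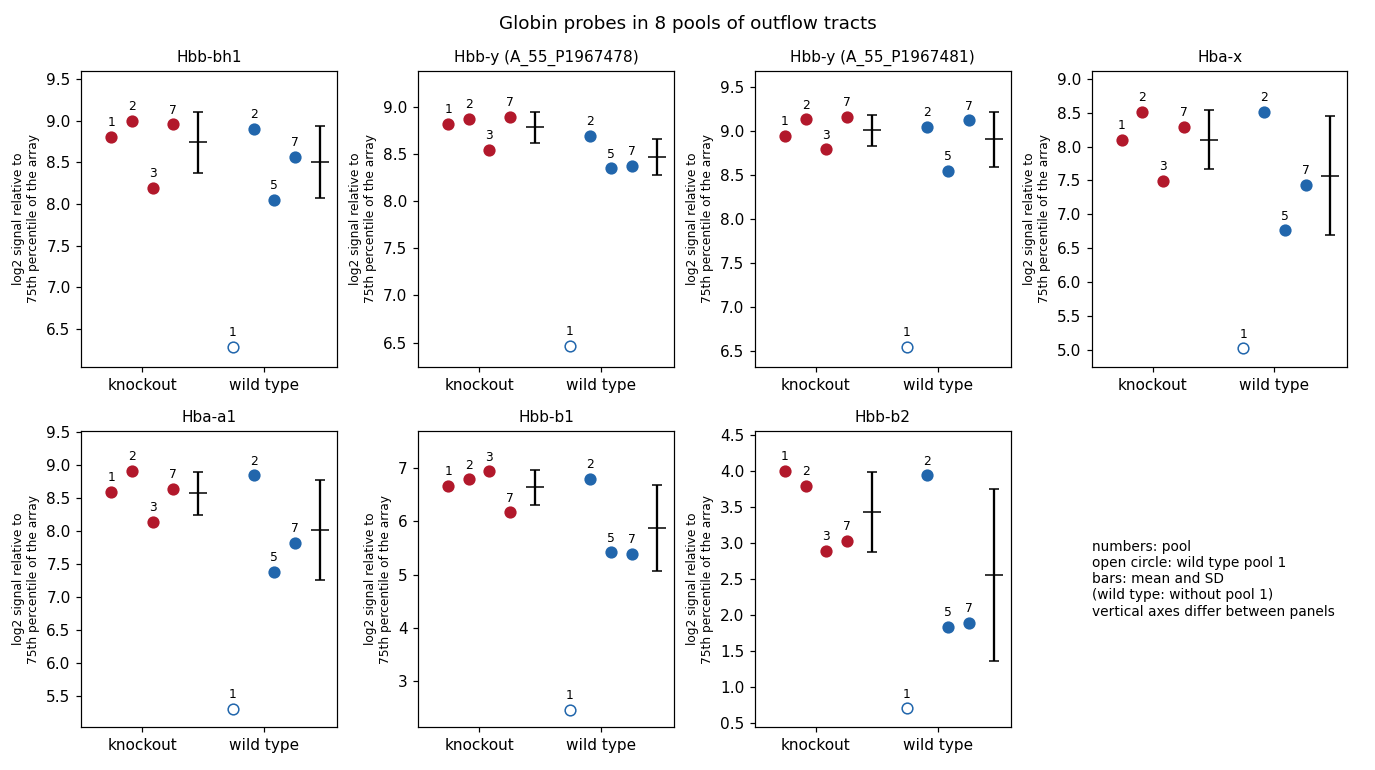
Level of the 7 globin probes as log2 of the signal over the 75th percentile of its array, 1 point per pool (red, knockout; blue, wild type; open circle, wild type pool 1), with the mean and SD, leaving wild type pool 1 out of the wild type bar. Wild type pool 2 sits with the knockout pools in every panel, while wild type pools 5 and 7 lie below all knockout pools for 5 of the 7 probes.

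Across the probes a common order of pools was seen. Wild type pools 5 and 7 both lay below every knockout pool for 5 of 7 probes, wild type pool 2 reached the knockout range for 7 of 7, and wild type pool 1 was the lowest for 7 of 7 after scaling. For 6 of the 7 probes the last held only after scaling, since the unscaled signal of wild type pool 1 exceeded that of wild type pools 5 and 7. For Hbb-b1 the unscaled signal of wild type pool 1 was the lowest as well. Dim probes were raised on the array of wild type pool 1, and whether scaling alone set its low levels was not tested. Leaving that pool out, the range over the other 7 pools was 0.62 for Hbb-y and 0.95 for Hbb-bh1, and it was 1.54 for Hba-a1, 1.55 for Hbb-b1, 1.75 for Hba-x and 2.16 for Hbb-b2. Within the knockout group alone the ranges were 0.37, 0.80, 0.78, 0.77, 1.01 and 1.11 in the same order of genes.

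The mean of every globin gene was higher in the knockout pools, but none of the differences passed the test. With all 8 pools the mean of Hbb-b1 was 6.63 ± 0.33 (SD, n = 4) in the knockout and 5.02 ± 1.83 (SD, n = 4) in the wild type pools, a log2 difference of 1.62 ± 0.80 (SE), or 3.07-fold, the largest of the 6. For Hba-a1 the means were 8.57 ± 0.32 and 7.34 ± 1.49, a difference of 1.23 ± 0.67. For Hba-x they were 8.10 ± 0.43 and 6.93 ± 1.47, a difference of 1.17 ± 0.67. These differences are smaller than the SD between wild type pools. The smallest difference, 0.69 ± 0.55, was that of Hbb-y on its brighter probe, with 0.79 ± 0.55 for Hbb-bh1 and 1.33 ± 0.64 for Hbb-b2. On the second Hbb-y probe, in a fit over all probes, the difference was 0.81 ± 0.48, just above that of Hbb-bh1.

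By limma with Benjamini-Hochberg adjustment over all genes, 0 of the 6 globin genes had an adjusted p under 0.05, where 0 of 24291 genes (0%) had one, and all 6 adjusted p-values were 0.735. At an unadjusted p under 0.05 there were again 0 of 6, beside 433 genes (1.78%); with arrays weighted by quality 8 genes passed, none of them a globin. The mean was higher in the knockout for 6 of 6 globin genes, and for 57.1% of all genes. It was higher by at least 1 on the log2 scale for 4 of 6 and for 0.852% of all genes. The median difference was 1.20 over the 6 genes and 0.13 over all genes. The groups overlapped for all 6, whereas 5.49% of all genes had groups that did not overlap. The 6 genes are read from the same red cells in the same pools and are not 6 independent observations.

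Leaving out wild type pool 1 reduced every difference. The median over the 6 genes was then 0.54, against 0.05 over all genes, and 0 of 6 reached 1, which 1.55% of all genes did. Hbb-b2 was at 0.87 ± 0.56 and Hbb-b1 at 0.77 ± 0.37. The wild type mean of Hbb-b1 was now 5.87 ± 0.81 (SD, n = 3), which makes the difference 1.7-fold. Hba-a1 was at 0.56 ± 0.35, Hba-x at 0.53 ± 0.42, Hbb-bh1 at 0.23 ± 0.26 and Hbb-y at 0.10 ± 0.17. The second Hbb-y probe was at 0.31 ± 0.14, above Hbb-bh1. Again 0 of 6 genes passed (limma adjusted p from 0.508 to 0.837; 0 of 23670 genes, 0%), and 0 of 6 had an unadjusted p under 0.05, which 10.6% of all genes had. The means of all 6 were still higher in the knockout, as were those of 59.3% of all genes. The groups overlapped for all 6, whereas those of 11.4% of all genes did not.

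**Figure D2:**
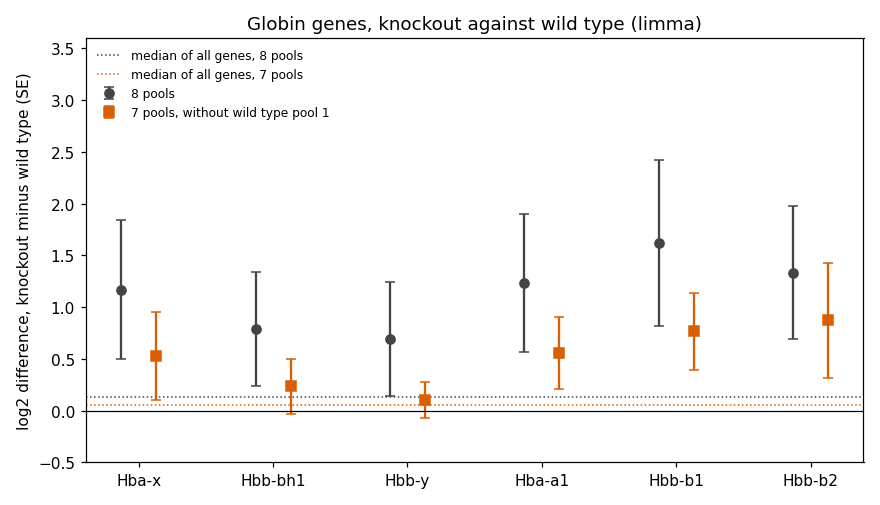
Log2 difference between knockout and wild type pools for the 6 globin genes, with its SE, from limma on 8 pools (circles) and on 7 pools without wild type pool 1 (squares); dotted lines give the median over all genes. The 8-pool differences run from 0.69 to 1.62 and the 7-pool ones from 0.10 to 0.87. Hbb-y, drawn from its brighter probe, is the lowest in both.

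Which wild type pools are counted decided the size. Leaving out wild type pool 2 instead, the pool at knockout level, moved Hbb-b1 to 2.21 and Hbb-b2 to 1.95 in the fit that keeps pool 1. Leaving out both pools 1 and 2, with 2 wild type pools remaining, gave 1.23 for Hbb-b1 and 1.56 for Hbb-b2. Leaving out pools 1 and 5 gave 0.005 for Hbb-bh1 and -0.07 for Hbb-y.

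The balance between embryonic and adult genes was compared within each array, where the scaling between arrays cancels. For the 2 alpha-like genes, the log2 ratio of Hba-x to Hba-a1 was -0.48, -0.41, -0.64 and -0.35 for the knockout and -0.29, -0.33, -0.62 and -0.38 for the wild type. The groups overlapped, and the means differed by -0.07, and the exact permutation test, two-sided here and below, gave p = 0.486. For the embryonic beta-like genes, Hbb-bh1 to Hbb-y, the ratio was -0.14, -0.14, -0.60 and -0.21 in the knockout and -0.27, -0.15, -0.50 and -0.55 in the wild type pools. The difference was 0.10 (exact permutation p = 0.514). Each ratio used 1 probe per gene, and the direction of these 2 depends on which probe is used. In 8 pools the second Hbb-y probe differed by 0.81 between knockout and wild type, above Hbb-bh1 at 0.79. The Hba-a2 probe, described below, differed by 0.60, under Hba-x at 1.17. With either of these probes the ratio concerned would change sign, and it was not tested. Knockout pool 3 had the lowest value of its group in both ratios.

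The ratio of Hbb-y to Hbb-b1, embryonic to adult beta, varied far more. It was 2.29, 2.35, 1.86 and 3.0 in the knockout pools and 4.09, 2.25, 3.13 and 3.74 in the wild type pools. The mean was 2.38 ± 0.47 (SD, n = 4) in the knockout and 3.30 ± 0.81 (SD, n = 4) in the wild type, a difference of -0.93, that is, relatively more Hbb-b1 signal in the knockout by 1.90-fold. Wild type pool 2 overlapped the knockout pools, and the exact permutation p was 0.114, where 70 assignments allow 0.0286 at best. Without wild type pool 1 the difference was -0.66, with p = 0.200 over 35 assignments by the exact permutation test. After Benjamini-Hochberg adjustment over the 3 ratios the smallest p was 0.343 in 8 pools and 0.600 in 7. A ratio between 2 probes shows how their signals moved against each other and is not a ratio of molecules.

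**Figure D3:**
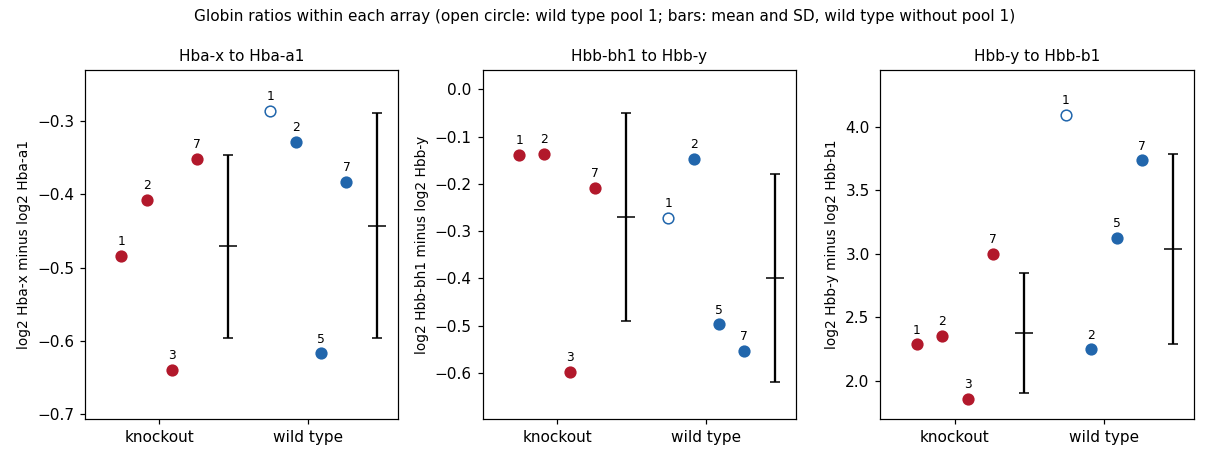
Log2 ratio of 2 globin signals within each array for the 4 knockout and 4 wild type pools (1 point per pool, open circle for wild type pool 1, bars for mean and SD without it). The Hba-x to Hba-a1 ratio spans -0.64 to -0.29 and the Hbb-y to Hbb-b1 ratio 1.86 to 4.09, with the groups overlapping in all 3 panels.

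Other globin loci bore on how far the members can be trusted one by one. Hba-a2, the second adult alpha gene, was singled out after its values were seen. It was read by a probe whose systematic name is an Hba-a2 accession, which keeps it out of the members, but whose longer accession list names Hba-a1 too. Its levels were 8.87, 9.01, 8.67 and 8.60 in the knockout and 6.44, 8.99, 8.52 and 8.79 in the wild type pools. The difference was 0.60 ± 0.54 in 8 pools and 0.02 ± 0.15 in 7, against 1.23 and 0.56 for the Hba-a1 probe, so the 2 probes for adult alpha differed in size. Ahsp, the chaperone that holds free alpha chains, had 4.14, 4.74, 3.18 and 4.76 against 0.95, 4.84, 2.62 and 3.30. As for Hba-x, wild type pool 2 was the highest of all 8 pools and knockout pool 3 the lowest of its group, but wild type pool 7 lay inside the knockout range. Mb, the myoglobin of heart muscle, which is a globin outside red cells, had 0.87, 0.31, 1.79 and -0.63 against -1.11, -0.30, 0.57 and 0.98, and wild type pool 2 was not high for it.

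Most other red cell genes that were looked up had higher knockout means too, without passing the test. Over the 4 lists of chain partners and other globin loci, erythroid transcription factors, heme and iron genes, and red cell membrane genes, receptors and enzymes, 63 of 66 genes were tested, and 58 had a higher and 5 a lower mean in the knockout (57.1% of all genes were higher). Without wild type pool 1 these counts were 53 and 10. Of the 63, 0 passed limma's adjusted p in either fit, and 3 (8 pools) and 4 (7 pools) had an unadjusted p under 0.05, beside 1.78% and 10.6% of all genes. The median difference was 0.82 in 8 pools and 0.43 in 7. Erythroid transcription factors were higher in 19 of 19 and 17 of 19 genes, with medians of 0.67 and 0.31. Heme and iron genes were higher in 14 and 12 of 15, with medians of 0.82 and 0.38. Membrane genes, receptors and enzymes were higher in 21 and 19 of 24, with medians of 0.97 and 0.75. Outside red cells, outflow tract markers were higher in 10 of 10 genes in 8 pools and 2 of 10 in 7, with medians of 0.43 and -0.10. Endothelial markers were higher in 6 and 4 of 8, with medians of 0.36 and 0.06. In 8 pools a high count was thus not particular to the red cell lists.

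The regulators Gata1 and Klf1 and the heme enzyme Alas2 gave the same picture of overlapping groups. Gata1, the master factor of the red cell lineage, had levels of 2.01, 2.91, 0.48 and 2.74 in the knockout and -0.34, 2.94, 0.14 and 0.81 in the wild type pools. Klf1, which binds CACCC elements and drives adult beta globin, had 1.86, 2.54, 0.55 and 2.20 against 0.57, 2.41, 0.32 and 0.33. Alas2, which starts heme synthesis in red cells, had 3.77, 4.55, 2.87 and 3.98 against 0.47, 4.44, 1.84 and 2.72. In all 3, knockout pool 3 was the lowest of its group and wild type pool 2 the highest of its group. Their differences were 1.15 ± 0.79, 0.88 ± 0.59 and 1.43 ± 0.78 in 8 pools, and 0.74 ± 0.81, 0.77 ± 0.65 and 0.80 ± 0.64 in 7.

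The red cell genes with the smallest unadjusted p were few and partly of wider expression. In 8 pools they were Gata2, a factor of blood progenitors and endothelium, at 1.02 ± 0.41, Kel, a red cell surface protein, at 1.59 ± 0.67, the iron carrier Slc11a2 at 0.77 ± 0.34 and the carbonic anhydrase Car2 at 1.57 ± 0.76. In 7 pools they were Gata2 at 0.67 ± 0.22, the corepressor Cbfa2t3 at 0.47 ± 0.16, the heme oxygenase Hmox1 at -0.61 ± 0.22 and the adaptor Lmo2 at 0.48 ± 0.19. None passed over all genes (limma adjusted p = 0.735 in 8 pools and from 0.402 to 0.448 in 7).

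Of the red cell lists, those of membrane, heme and chain partner genes had pool orders close to that of the globins. After subtracting from each gene its average over the 7 pools without wild type pool 1, the median of the 6 globins was 0.24, 0.53, -0.18 and 0.25 for the knockout and 0.50, -0.92 and -0.48 for wild type pools 2, 5 and 7. The centred median of the membrane list was 0.36, 0.99, -0.55 and 0.51 in those knockout pools and 0.81, -1.33 and -0.82 in the wild type pools. The heme list gave 0.14, 0.65, -0.41 and 0.31, and 0.47, -0.58 and -0.41. The list of chain partners and other globin loci, with 5 tested genes, gave 0.20, 0.80, -0.70 and 0.63, and 0.90, -1.28 and -0.63. In the globins and in each of these lists, knockout pool 2 and wild type pool 2 were the 2 highest. Wild type pools 5 and 7 were among the 3 lowest in each. The transcription factor list differed in this, with 0.07, 0.33, 0.008 and 0.33 for the knockout and 0.13, -0.17 and -0.41 for the wild type, so that knockout pools 2 and 7 were highest and wild type pool 2 came after them.

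Markers of the tissue around the blood did not show that order. The centred median of the 8 endothelial markers ran from -0.20 to 0.29 over the 7 pools and that of the 10 outflow tract markers from -0.17 to 0.33, with wild type pool 7 highest for the latter. The summed level of the endothelial markers, in multiples of the array's 75th percentile, was 18.2 to 26.4 in the knockout pools and 19.5 to 22.5 in wild type pools 2, 5 and 7. That of the 24 red cell membrane genes was 121 to 233 and 101 to 215. In wild type pool 1 the sums were 8.78 and 40.5. Macrophage and leukocyte markers summed to 20.1 to 28.1 in the knockout and 17.1 to 22.6 in wild type pools 2, 5 and 7, with 9 of 10 higher in the knockout in 7 pools and 3 of 10 in 8. Of 5 yolk sac endoderm and liver markers only Afp and Ttr were bright enough to be tested. The part of these other cell types in the globin differences was not tested.

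**Figure D4:**
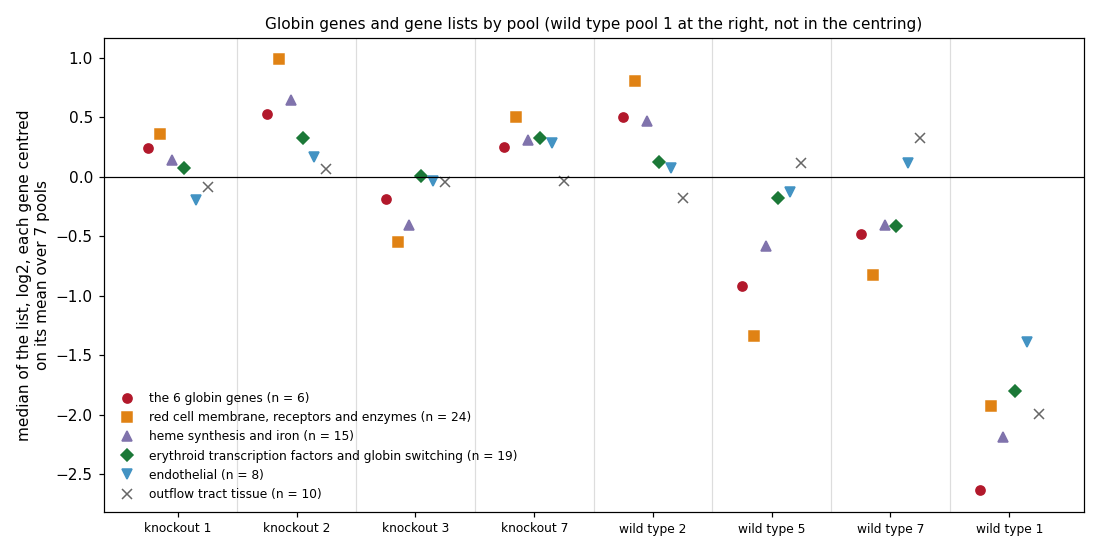
Median of each gene list per pool, on the log2 scale, after subtracting each gene's average over the 7 pools without wild type pool 1, which is drawn as well. The globin genes, the membrane list and the heme list are high in knockout pool 2 and wild type pool 2 and low in wild type pools 5 and 7, while the endothelial and outflow tract lists stay between -0.20 and 0.33 outside wild type pool 1.

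Genes whose pool profile was nearest to that of the embryonic globins were sought over all genes with a symbol. The measure was the root mean square difference from the mean of Hbb-bh1, Hbb-y and Hba-x, each centred, and it describes 7 or 8 pools that share these arrays. Over 7 pools and 16245 genes the nearest 5 were Gm7676, Arrb1, Sh3yl1, Ncoa4 and Mog, at 0.10 to 0.12 on the log2 scale, where the median over those genes was 0.43. Over 8 pools and 16533 genes they were Ncoa4, Arrb1, Creg1, Hebp1 and Brpf3, at 0.11 to 0.16 against 0.66. Ncoa4, the receptor that delivers ferritin iron for reuse, and Arrb1, a beta-arrestin, were in both sets. Ncoa4 had levels of 3.64, 4.00, 3.19 and 3.95 in the knockout pools and 1.05, 3.77, 3.13 and 3.44 in the wild type pools. That wild type pool 2 lay beside the knockout pools follows from picking genes by this profile. Hebp1 is a heme-binding protein.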

How the data were processed

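RNA of 8 pools was hybridised to 1-colour Agilent arrays, 1 array per pool. The authors deposited spot intensity values from Agilent Feature Extraction 10.7.3.1 (array design 028005, mm9), background-subtracted and detrended within the array, per the file headers, with no scaling across arrays. Their deposited matrix differed from these by at most 0.497%. The file of knockout pool 1 held signals to 3 significant digits.

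Flagged spots were dropped and spots of 1 probe averaged. Log2 processed signals were scaled by the array's 75th percentile over spots that are not controls. A probe entered the fit if it was well above background on 3 or more arrays of either group, and the brightest such probe on average represented its gene. Members kept the name in the file; other probes were named through RefSeq accessions. Groups were compared with limma 3.58.1 in R 4.3.3 (lmFit, eBayes, two-sided, Benjamini-Hochberg over all genes, threshold 0.05), and ratios with exact permutation tests. The fit was tested on simulated data in which genes were independent and had equal spread. No simulated array stood apart as that of wild type pool 1 does, so the behaviour of the fit with such an array was not tested. The number of arrays limits the precision. Nothing says that pools of a group were otherwise independent. The p-values set each difference against the spread between these samples, which may be technical.

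The members, gene lists and tests were chosen with earlier results of these data known. Named genes were the members, Ahsp, Gata1, Klf1, Alas2, Mb and Aldh1a2, list genes past the threshold, the 4 red cell genes with the smallest p in each fit, and the 5 nearest profiles; any other with printed values was picked with them in view, as is said there, and genes without values are examples of a list. Of the lists, that of globins outside red cells held 2 tested genes (medians 0.40 and 0.17 in 8 and 7 pools), and that of platelet genes is in the closing part. Alternatives were quantile and median scaling, normexp (offset 50), matrix values, no scaling, filters, probe choice, eBayes with trend, arrayWeights, the pool number as a block and leaving out each pool.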

Additional observations from a re-analysis of the deposited data

Results flagged for a closer look

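In 20 groups of 4 pools (7 probes and 3 ratios in each genotype), 1 pool lay far from the other 3 in 2 of them, where chance gives about 1. On the second Hbb-y probe, wild type pool 1 had a scaled log2 signal of 6.46, with the other wild type pools between 8.35 and 8.69. In the log2 ratio of Hbb-bh1 to Hbb-y, knockout pool 3 was at -0.60, with the other knockout pools between -0.21 and -0.14.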

How the results depend on the processing

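No globin gene passed the threshold under any alternative that was run, and in 8 pools all 6 kept a higher knockout mean in 121 of 121 values. Part of the values in either fit only repeat the main one. The filters and eBayes with trend left each gene's difference as it was, and so did probe choice for genes with 1 probe. In 7 pools, without wild type pool 1, 113 of 115 values were positive; the exceptions were Hbb-y with array median scaling (-0.10) and without wild type pool 5 (-0.074), and the cause was not tested. The lowest adjusted p of a globin gene was 0.366 in 8 pools and 0.242 in 7. Quantile normalization of 8 arrays put Hbb-y (0.10) below the median over all genes (0.21). In 7 pools Hbb-y was also below that median with the pool number as a block (0.065 against 0.089) and without wild type pool 5, as was Hbb-bh1 without that pool (0.0055 against 0.064). That median moved from 0.13 to 0.67 with array median scaling, to -0.18 with no scaling, an alternative chosen after seeing the data, and to -0.30 with no filter on dim probes. In 7 pools it moved from 0.05 to -0.0023 with quantile normalization and to -0.15 with array median scaling. Of all genes, 8 passed with arrayWeights in 8 pools. In 7 pools 22 passed with array median scaling and 1 with no scaling, and 0 to 10 as each further pool was left out (10 without wild type pool 5, 1 without knockout pool 7). The ratio of Hbb-y to Hbb-b1 ran from -1.28 (without wild type pool 2, exact permutation p = 0.0571) to -0.66. All 3 ratios kept their direction and missed the threshold in 13 of 13 alternatives each. The Hba-x to Hba-a1 ratio with the Hba-a2 probe, and the Hbb-bh1 to Hbb-y ratio with the second Hbb-y probe alone, were not among them. Either ratio would change sign with that probe. The pool numbers shared by the groups (1, 2 and 7) are not stated to pair them: deviations from the group means correlated at -0.15, 0.32 and -0.41, and only knockout pool 2 correlated best with the wild type pool of its own number. With the pool number as a block the Hbb-b1 difference was 1.65 in 8 pools and 0.38 in 7, the Hbb-y to Hbb-b1 ratio -0.81, and no call changed. No depth can be given for arrays; the globin probes were well above background on all of them.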

Other observations

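Platelet genes, of the blood lineage that forms clots, did not run with the globins. Of 6 markers 6 had lower knockout means in 8 pools and 5 in 7, with medians of -0.42 and -0.68, and 0 passed limma's adjusted p. Ppbp and Pf4, chemokines stored in platelets and named because of their values, which had been seen, were lower by 1.26 ± 0.29 and 1.30 ± 0.40 (SE) in 7 pools (limma adjusted p = 0.345 and 0.380). With wild type pool 1 kept, the 8-pool differences were -0.97 ± 0.40 for Ppbp and -0.56 ± 0.73 for Pf4 (limma adjusted p = 0.735 for both). Pf4 had levels of 2.06, 2.49, 1.77 and 2.74 in the knockout pools and 0.61, 4.48, 2.92 and 3.29 in wild type pools 1, 2, 5 and 7. Ppbp had -0.89, -0.93, -1.02 and -1.11 against -0.86, 1.02, -0.33 and 0.13. Outside wild type pool 1 the groups of both did not overlap, which 11.4% of all genes share. Wild type pool 2 was highest for both, and wild type pools 5 and 7, low in globins, lay above the knockout pools.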
